A study of Homo sapiens with 267 samples.

Results

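Single K562 cells from the Hoechst run were ranked by the level of 6 genes of G2 and mitosis, and the cells with the highest scores (G2/M-high, 25 cells) were set against those with the lowest (G2/M-low, 25 cells). The run held 96 of the 267 libraries of the series. Left out were 14 libraries in which the top 500 genes took over 70% of reads and 5 libraries with at least 10000 genes at more than 2 reads. This kept 77 cells, of which 27 lay between both groups and are called middle cells. The score of a cell was the mean log2(CPM + 1) of CCNB1, PLK1, CENPE, CCNA2, KIF20A and HMMR, where CPM is counts per 1000000 reads on genes with the ERCC spike-in sequences left out. Cells were thus chosen by the measured level of these 6 genes, so every difference within the Hoechst run is a description, and no test was made. The study captured cells of 1 batch on separate occasions, and cells of 1 batch are not replicates, so the SDs given below are over cells.

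K562 is an immortalised human line of myelogenous leukaemia (CCL-243), here captured on the Fluidigm C1 system, where RNA of each cell is turned into SMARTer cDNA before a Nextera XT library is made. All cells of the run were labelled untreated, with passages given as 90-92 hours, and had been stained for 20 min with Hoechst 33342 at 2 µM, a dye of DNA in all cells, and propidium iodide at 3.75 µM, which enters dead cells. The study compared fresh cells with cells kept in the cross-linker DSP, but the labels do not say which libraries were fresh, fixed or stained by propidium iodide, so these states cannot be told apart within either group. Bulk samples of K562 cells were prepared beside each run of the study. The paper lists fresh and fixed bulk samples for its experiment with these dyes, and sequenced bulk libraries in 1 pool with single-cell ones. The labels do not say which libraries are bulk either. Untreated CellTracker Green cells of the imatinib run and of the benzene run (Green at 1 µM for 30 min, passages 20-22 in both) were ranked by the same score within each run, as 2 sets of cells that the ranking of the Hoechst run did not use. They gave 16 high and 16 low cells of 48 kept, and 10 high and 10 low cells of 30 kept. By the paper, the experiment with Hoechst 33342 used a different lot of K562 cells from the CellTracker experiments. Sequencer model and read length differed between them too, and the CellTracker experiments also compared fresh with fixed cells.

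A dividing cell copies its DNA in S phase, passes through G2 and enters mitosis when cyclin B and its kinase CDK1 become active. Transcripts for the mitotic machinery accumulate through G2: kinases such as PLK1 and Aurora A, motors and microtubule-binding proteins that build the spindle, kinetochore proteins that tie chromosomes to it, condensins, and the anaphase-promoting complex with its activator CDC20, which ends mitosis. Many of these genes share promoter elements, the cell cycle genes homology region (CHR, read by the DREAM and MuvB complexes) and CCAAT boxes (read by NF-Y), while G1/S genes more often carry E2F sites. Replication genes such as PCNA and the MCM helicase are induced earlier, at G1/S.

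The promoters of 3 mitotic genes that were higher in the G2/M-high cells are shown here for these elements. Each run holds the 250 bases before the RefSeq transcript start, 5′ to 3′ on the strand of the gene, and each was matched exactly once on its chromosome of GRCh37, at chr1:43824402-43824651 (+) for CDC20, chr2:111435641-111435890 (-) for BUB1 and chr6:33359350-33359599 (+) for KIFC1. Capitals mark CHR letters (TTTGAA or TTCGAA) and CCAAT letters on either strand.
CDC20: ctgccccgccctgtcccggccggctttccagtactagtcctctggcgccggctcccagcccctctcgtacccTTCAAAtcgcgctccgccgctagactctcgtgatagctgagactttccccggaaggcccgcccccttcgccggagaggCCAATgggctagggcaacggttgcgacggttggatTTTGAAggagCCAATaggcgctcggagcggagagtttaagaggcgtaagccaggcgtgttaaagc
BUB1: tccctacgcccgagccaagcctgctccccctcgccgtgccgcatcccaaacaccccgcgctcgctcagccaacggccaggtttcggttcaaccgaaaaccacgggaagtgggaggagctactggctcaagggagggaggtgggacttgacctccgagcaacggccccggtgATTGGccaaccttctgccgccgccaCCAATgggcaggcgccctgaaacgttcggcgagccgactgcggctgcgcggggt
KIFC1: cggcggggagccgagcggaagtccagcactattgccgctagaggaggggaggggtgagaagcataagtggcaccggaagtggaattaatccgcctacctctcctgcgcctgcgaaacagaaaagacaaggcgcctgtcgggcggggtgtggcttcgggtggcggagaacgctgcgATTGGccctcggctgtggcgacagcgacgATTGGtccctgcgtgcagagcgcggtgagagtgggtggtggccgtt

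CDC20 held the CHR letters 178 and 65 bases before its start and CCAAT 100 and 55 bases before it. BUB1, a checkpoint kinase at kinetochores, and KIFC1, a spindle motor, each held 2 CCAAT matches upstream, and their CHR letters lay just after the start, outside the bases printed. Over windows of 300 bases (250 before and 50 after the start), the CHR letters were found in 63 of 86 promoters of the mitotic lists (73.3%), in 2 of 32 of the G1/S list (6.25%) and in 16.6% of all 27305 promoters of the RefSeq table. CCAAT stood in 68.6% of the mitotic, 59.4% of the G1/S and 35.7% of all promoters, and both motifs together in 57%, 6.25% and 6.58%. Letters of the E2F kind (TTTGGCGC or TTTCCCGC, either strand) stood in 50% of the G1/S promoters, 3.49% of the mitotic ones and 2.31% of all promoters. A match is a description of the letters, and promoters were found for 86 of 101 mitotic and 32 of 39 G1/S genes. These shares describe the lists. Of the genes at least 2 higher (log2) in the G2/M-high cells, 18 of 86 promoters held CHR letters (20.9%). Outside the mitotic lists it was 10 of 74 (13.5%), against 11.6% of all genes tested. Both motifs together stood in 12.8%, 4.05% and 5.31% of these 3 sets.

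The score ran from 0.753 to 8.35 with an SD of 1.5 over the 77 cells. The highest G2/M-low cell had 5.60 and the next cell 5.62, and the lowest G2/M-high cell had 6.64 against 6.61 for the cell below it, so neither limit fell in a gap. The 6 score genes went together only loosely, with Spearman correlations over cells between -0.03 and 0.40 and a median of 0.20 over 15 pairs, all from the same libraries. When each score gene was left out of the score in turn and the cells were cut again, its own mean log2(CPM + 1) was still higher in the high cells, by 1.44 for CCNB1 (cyclin B1), 1.94 for PLK1 (Polo-like kinase), 1.47 for CENPE (a kinetochore motor), 2.15 for CCNA2 (cyclin A2), 1.58 for KIF20A (a cytokinesis motor) and 0.65 for HMMR (a spindle protein). In the CellTracker Green cells the same differences ran from 0.69 to 3.86 in the imatinib run and from -0.03 to 3.15 in the benzene run, the lowest being CCNA2 in the latter. In the cuts of the Hoechst run, all genes had medians from 0.23 (without KIF20A) to 0.41 (without CENPE), and 0.27 without HMMR. HMMR had more than 2 reads in 23 of 25 high and 24 of 25 low cells of its cut. Of the 25 G2/M-low cells, 4 had no read of at least 3 of the 6 score genes, and 25 of the 25 G2/M-high cells had reads of all 6.

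**Figure D1:**
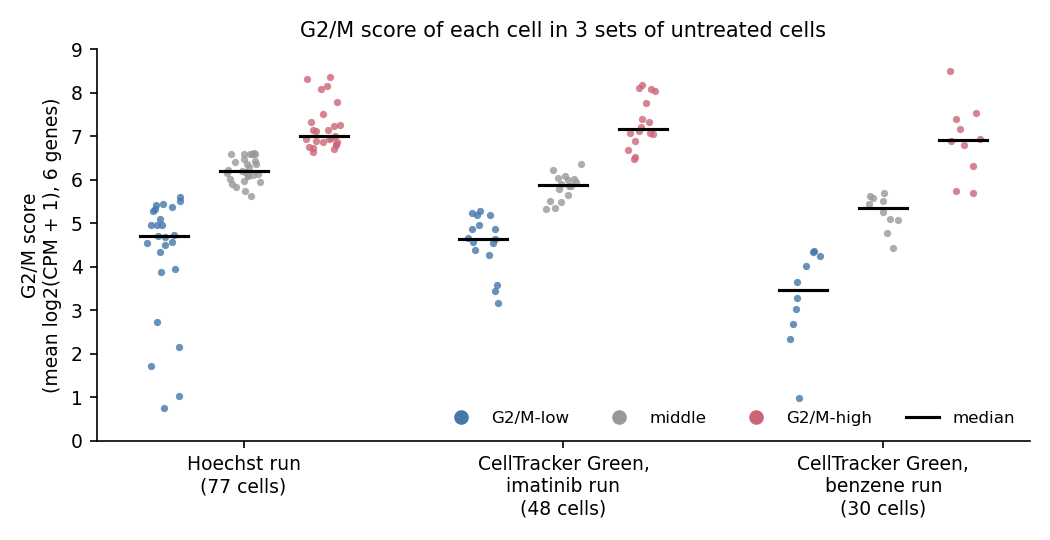
G2/M score of each cell (vertical axis, mean log2(CPM + 1) of 6 genes) in the 77 cells of the Hoechst run and in the untreated CellTracker Green cells of the imatinib run (48) and the benzene run (30), with low, middle and high cells in colour and a bar at each median. The low group of the Hoechst run has a tail down to 0.753, while its middle cells lie close together between 5.62 and 6.61.

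A group of 4 libraries stood apart and bear on the values below. Library 91, in the G2/M-high group with 9138 genes detected, had an ERCC share of 0.458% where the other 76 kept cells had 1.46% to 15.7%, and the 5 libraries left out for their number of genes, numbers 92 to 96, had 0.602% to 1.19%. Whether library 91 holds a single cell or a bulk sample is not given by the labels. Libraries 2, 4 and 23, all G2/M-low, had few transcripts of either replication or mitosis, library 23 less markedly than the other 2. Of the 39 genes of the G1/S and replication list that passed the detection filter (more than 2 reads in at least 20% of the kept cells), 27, 31 and 21 had no read in these libraries, against 0 to 13 (median 4) in the other 74 cells. Of the 101 mitotic genes that passed, 65, 69 and 51 had no read, against 1 to 41 (median 9) elsewhere.

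MKI67, the proliferation antigen Ki-67, and BUB1 had no read in any of the 3 libraries and had reads in all other 74 cells, where their medians were 314 and 241 CPM. PCNA, the sliding clamp of replication, was at 0 CPM in libraries 2 and 4 and at 6.85 CPM in library 23, against a median of 171 CPM. TOP2A, which untangles chromosomes, was at 0, 0 and 56.5 CPM in libraries 2, 4 and 23, against a median of 476 CPM. Not all such genes were low in library 23. TYMS, thymidylate synthase, was at 18.6, 6.08 and 79.7 CPM in libraries 2, 4 and 23, against a median of 70.9 CPM. The log2(CPM + 1) of AURKA was 0, 0 and 7.13. Part of their K562 markers was present. Of 12 K562 identity genes 4, 1 and 4 had no read in libraries 2, 4 and 23, against 0 to 4 (median 1) in the other cells, and the mean log2(CPM + 1) of the list was 5.45, 6.27 and 4.73 against a median of 7.02. PRAME, a cancer-testis antigen of this line, was at 7203, 5938 and 2306 CPM (median of the other cells 2834), and RHAG, a red cell membrane protein, at 1113, 962 and 1146 CPM (median 344). GATA1, the erythroid transcription factor, was at 687, 80.2 and 256 CPM (median 339). HBG2, a fetal globin whose near-identical copy HBG1 makes its counts uncertain, was lower, at 0, 813 and 138 CPM (median 1504). The plot of mitotic against replication genes shows these 3 cells at the lower left, away from all others.

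**Figure D2:**
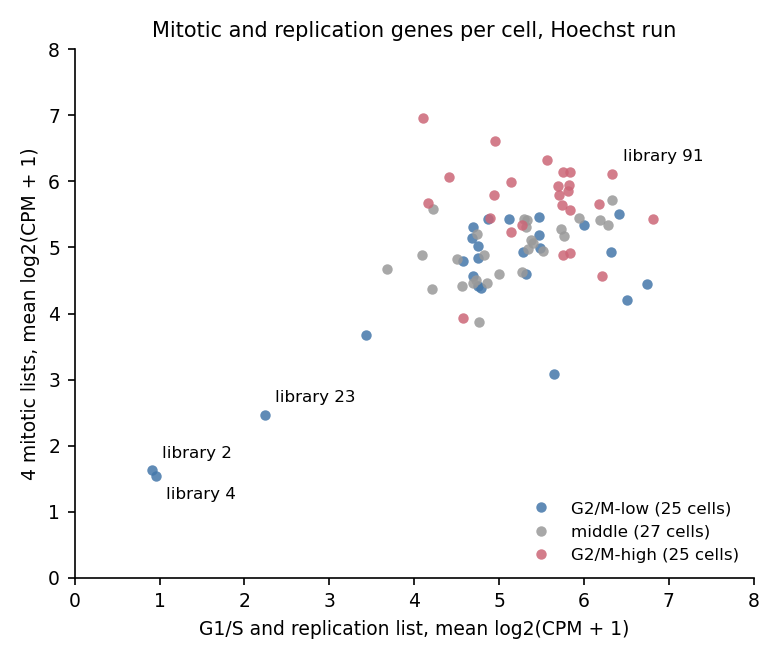
Mean log2(CPM + 1) over the 101 detected mitotic genes (vertical axis) against the mean over the 39 detected G1/S and replication genes (horizontal axis) in the 77 kept cells of the Hoechst run, coloured by G2/M group. Libraries 2 and 4 lie at 0.91 and 0.96 on the horizontal axis and library 23 at 2.24, while the other cells lie between 3.44 and 6.81, and library 91 lies among the G2/M-high cells.

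Most mitotic genes outside the score were higher in the G2/M-high cells. Of 103 mitotic genes in 4 lists 101 passed the filter (UBE2C and PIMREG did not), and 98 of these had a difference above 0 in mean log2(CPM + 1), 64 a difference of at least 1 and 14 of at least 2, with a median of 1.21 (SD over genes 0.69). Over all 10418 genes tested the median was 0.34, 72% lay above 0, 15.2% were at least 1 higher and 103 genes (0.989%) at least 2 higher. No gene was at least 2 lower (0.0%), and 164 genes (1.57%) were at least 1 lower. The mean rose from low to middle to high cells in 74 of the 101 mitotic genes (73.3%) and in 28.3% of all genes. Without libraries 2, 4 and 23 and with the groups cut again, the mitotic median was 0.88 against 0.36 for all genes, and 42 of 102 mitotic genes were at least 1 higher against 17.4% of all genes. Without library 91 the median was 1.22 and 65 of 101 were at least 1 higher. With log2(CPM + 10) the mitotic median was 0.74 (all genes 0.14), and 26 of 101 were at least 1 higher and 97 above 0. From reads summed over cells the mitotic median was 0.52 (all genes 0.055), and 23 were at least 1 higher and 83 above 0.

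The spindle and cytokinesis list had the highest median of the 4, 1.34 over 32 genes, of which 24 were at least 1 and 8 at least 2 higher. Without libraries 2, 4 and 23 its median was 0.98, below the 1.09 of the entry and exit list, and 16 of 33 genes were at least 1 and 5 at least 2 higher. KIFC1, the minus-end motor that bundles spindle microtubules, was at 0 to 68.6 CPM (median 0.56) in the low cells and 0 to 259 CPM (median 32.1) in the high cells. It had more than 2 reads in 7 of 25 low cells (28%, exact binomial 95% interval 12.1 to 49.4%) and in 21 of 25 high cells (84%, 63.9 to 95.5%), intervals that cover counting error only. Its difference was 2.86 (SD over cells 2.41), with overlap between the groups. RACGAP1, a subunit of centralspindlin in the dividing midzone, had medians of 10.9 CPM in low and 52.5 CPM in high cells (ranges 0 to 158 and 0 to 1073) and a difference of 2.30. CKAP2L, a spindle pole protein, went from a median of 2.74 to 45.1 CPM, a difference of 2.53, and DLGAP5, which stabilises kinetochore fibres, from 1.63 to 50.9 CPM, a difference of 2.36. By sums of reads over cells DLGAP5 was lower in the high cells, by 0.31 on the log2 scale, and 1 low cell held 945 CPM. CKAP2, a microtubule stabiliser, had reads in each high cell (7.13 to 319 CPM, median 102) against a median of 15.3 CPM in low cells. In the same list ANLN, an actin-binding protein of the cleavage furrow, had a difference of -0.28.

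Regulators of mitotic entry and exit had a median difference of 1.25 over 27 genes, of which 18 were at least 1 higher. CDC25C, the phosphatase that activates CDK1, had a median of 1.40 CPM in low and 46.1 CPM in high cells and a difference of 2.66. CDC20 was at 0 to 1093 CPM (median 19.7) in low and 6.49 to 1663 CPM (median 143) in high cells, with reads in every high cell, and differed by 2.40. FOXM1, a transcription factor that drives G2/M genes, was low throughout, with more than 2 reads in 2 of 25 low cells (8%, 0.984 to 26%) and 14 of 25 high cells (56%, 34.9 to 75.6%), and differed by 2.06. By sums of reads over cells FOXM1 differed by 4.21 on the log2 scale. AURKA, the Aurora A kinase of centrosomes, had medians of 44.8 and 126 CPM and a difference of 1.76. Below 0 lay PKMYT1, an inhibitory kinase of CDK1, at -0.47 and BORA, an activator of Aurora A, at -0.22. CDK1 itself differed by 1.21 in the mean of logs but hardly in its medians, 173 CPM in low and 165 CPM in high cells.

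All 25 kinetochore and checkpoint genes that passed the filter lay above 0, with a median of 1.12, and 15 were at least 1 higher. BUB1 was at 0 to 595 CPM (median 133) in low and 85 to 2061 CPM (median 330) in high cells, a difference of 2.32. CDCA8, the borealin subunit of the chromosomal passenger complex, had medians of 32 and 141 CPM and a difference of 2.28. NUF2, a subunit of the NDC80 complex that grips microtubules, differed by 1.81, and BUB1B, the checkpoint kinase BubR1, by 1.74. Without libraries 2, 4 and 23 the median of this list was 0.74, 8 genes were at least 1 higher and none at least 2, with BUB1 at 1.5, CDCA8 at 1.64 and NUF2 at 1.00.

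Chromosome condensation genes had a median of 0.92 over 17 genes, all above 0, and none was at least 2 higher. TOP2A went from a median of 299 CPM to 713 CPM (difference 1.98), KPNA2, an importin, from 106 to 259 CPM (1.86) and NCAPD2, a condensin subunit, from 42.5 to 188 CPM (1.59). Without libraries 2, 4 and 23 the list median was 0.49, close to that of all genes (0.36), and TOP2A was at 1.06 while NCAPD2 was at 1.67.

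**Figure D3:**
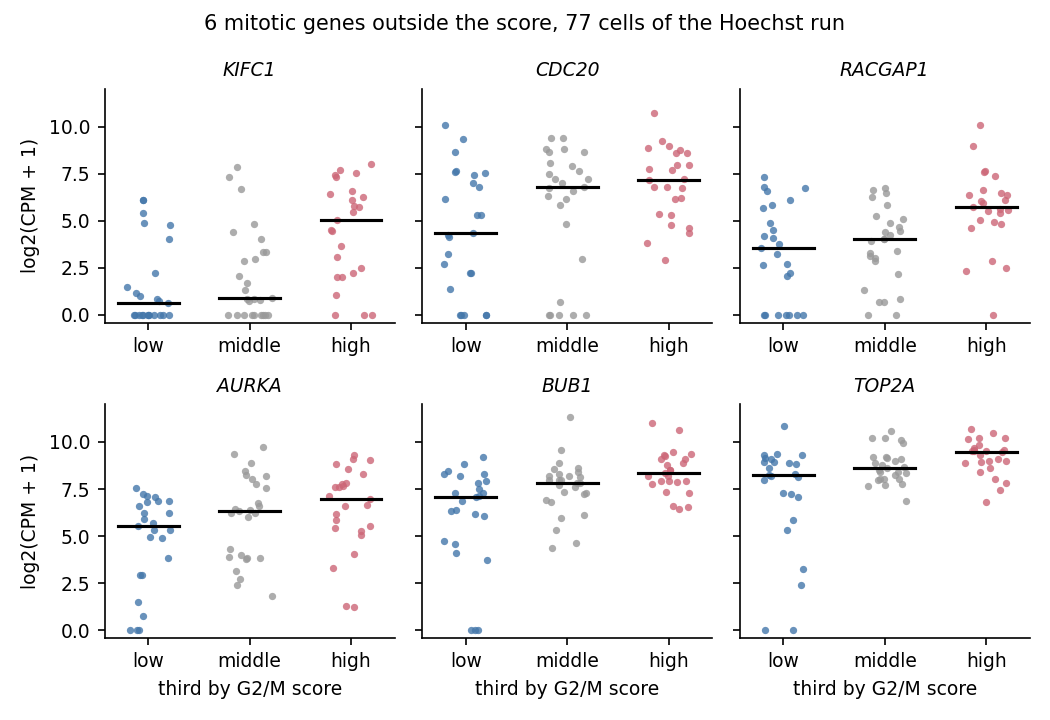
log2(CPM + 1) of 6 mitotic genes that are not in the score, in each of the 77 kept cells of the Hoechst run, by low, middle and high G2/M score, with a bar at each median. The groups overlap for all 6 genes, and the points at 0 for BUB1 and TOP2A in the low group include libraries 2 and 4.

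The same ranking within the CellTracker Green cells gave mitotic medians of 0.99 over 102 genes in the imatinib run and 1.17 over 96 genes in the benzene run, where the medians of all genes were 0.26 and 0.25. At least 1 higher were 49 of 102 and 51 of 96 mitotic genes, against 15.2% and 24.2% of all genes. Among 96 mitotic genes tested in all 3 sets, 21 were at least 1 higher in each, against 118 of 8535 genes (1.38%), and 77 lay above 0 in each, against 32.1%. Those 21 were AURKA, BUB1, BUB1B, CDC20, CDCA8, CENPF, CKAP2L, CKS2, DEPDC1B, FOXM1, HJURP, KIF14, KIF18A, KIF4A, KIFC1, MKI67, NDC80, PIF1, PSRC1, RACGAP1 and SKA1. RACGAP1 had differences of 2.30, 2.64 and 3.02 in the Hoechst, imatinib and benzene runs, AURKA of 1.76, 2.55 and 2.38, CDC20 of 2.40, 1.48 and 2.35, and KIFC1 of 2.86, 1.54 and 1.93. No gene was at least 1 lower in all 3 sets (0.0%).

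By the smallest of the 3 differences the leading gene was CDCA2, which recruits phosphatase PP1 to chromosomes and stood in none of the lists. It was at 0 to 382 CPM (median 7.80) in the low and 4.32 to 973 CPM (median 78.9) in the high cells of the Hoechst run, and its differences were 2.68, 2.69 and 3.21. Next to RACGAP1 and AURKA, this rule named VPS4A, an ATPase of the ESCRT machinery that cuts the last bridge between daughter cells (1.90, 2.19 and 3.37), POC1A, a centriole protein (1.71, 1.73 and 2.66), and PPARGC1B, a transcriptional coactivator (1.90, 2.04 and 2.54). On the lower side PDPR, a regulator of pyruvate dehydrogenase phosphatase, led by this rule at -1.0, -1.06 and -0.99. KLHL7 followed at -1.38, -0.96 and -0.92, REV3L, the catalytic subunit of polymerase zeta, at -0.69, -1.09 and -1.14, and ZBED5 was at -1.18, -1.64 and -0.63.

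Genes with large differences in the Hoechst run that stood in no list had, in the median, smaller ones in the CellTracker runs. Of the 103 genes at least 2 higher, 14 were in the mitotic lists, 2 in other lists (EXO1, a repair exonuclease, and HBZ, an embryonic globin) and 87 in none. Of the 14, 10 were at least 1 higher in the imatinib run and 10 in the benzene run, with medians there of 1.54 and 1.97. Of the 84 unlisted genes tested in all sets, 21 and 29 were, with medians of 0.33 and 0.27, near the 0.26 and 0.25 of all genes. Among all genes, 15.2% and 24.2% were at least 1 higher in these runs, below the shares in both groups of genes. PAFAH1B3, a phospholipase subunit, had the largest difference of the Hoechst run, 3.11, with medians of 0.82 and 49.9 CPM, and was at 0.22 and 0.08 in the CellTracker runs. TK1, thymidine kinase, was at 2.61 against -0.22 and -0.68, UBL7 at 2.75 against -0.30 and -0.67, and MRPS22, a mitochondrial ribosomal protein, at 2.60 against 0.13 and -0.19. By contrast TROAP, which is needed for spindle assembly and stood in none of the lists, was at 2.85, 1.90 and 1.41. Genes at least 2 higher in both the Hoechst and imatinib runs numbered 7 (6.80% of 103 and 4.83% of the 145 of the imatinib run, 1.38% of its genes), namely CDC25C, CDCA2, CKAP2L, DLGAP5, MECR, PEF1 and RACGAP1. The Hoechst and benzene runs shared 19 (18.4% of 103 and 3.27% of the 582 of the benzene run, 6.37% of its genes).

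**Figure D4:**
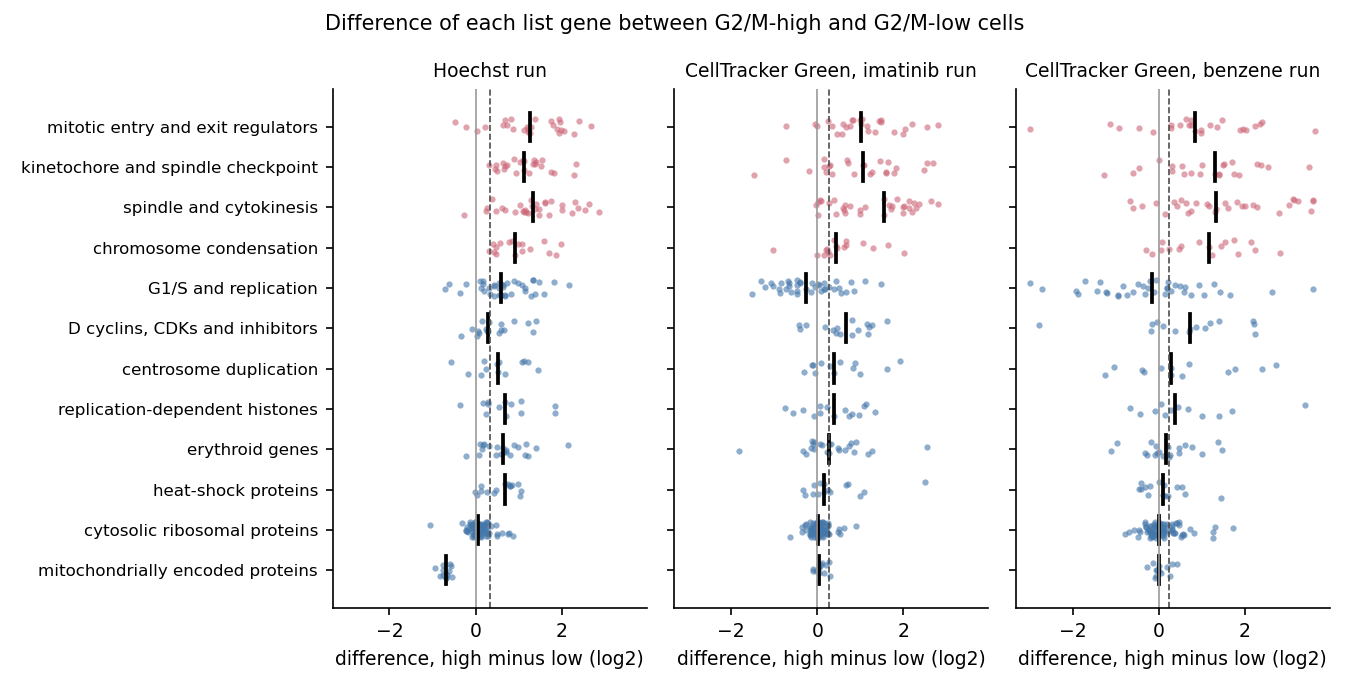
Difference in mean log2(CPM + 1), high minus low cells, of each gene that passed the filter in 12 lists, for the Hoechst run and the untreated CellTracker Green cells of the imatinib and benzene runs. Each point is a gene, black bars are list medians, the dashed line is the median of all genes and the grey line is 0. Mitotic lists (red) lie to the right in all 3 sets, while the G1/S list lies right of 0 in the Hoechst run (0.58) and left of it in the others (-0.26 and -0.16).

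Replication genes differed less, and their list median lay above 0 in the Hoechst run and below 0 in the CellTracker runs. The G1/S and replication list had a median of 0.58 over 39 genes in the Hoechst run, with 11 at least 1 higher, and medians of -0.26 and -0.16 in the imatinib and benzene runs. Without libraries 2, 4 and 23 the Hoechst median was 0.23, below the 0.36 of all genes. EXO1 went from a median of 12.5 CPM to 171 CPM (difference 2.18, and 1.48 and -0.94 in the CellTracker runs). PCNA was at 1.13 in the Hoechst run and 0.09 and 0.22 in the others, MCM3 at 0.58, -0.67 and -0.32, and the replication licensing factor CDT1 at 0.16, -0.84 and -1.93. D cyclins, CDKs and their inhibitors had a median of 0.30 over 18 genes, at that of all genes. CCND2, cyclin D2, had medians of 273 and 276 CPM in low and high cells. Replication-dependent histone genes, whose transcripts mostly lack a poly(A) tail, had a median of 0.68 over 13 genes.

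With all kept cells of the Hoechst run, the remaining lists had medians below those of the 4 mitotic lists. Without the 3 low libraries this order did not hold for the condensation list. Its median was then 0.49, below replication-dependent histones (0.55) and immediate-early genes (0.51) and level with heat-shock proteins (0.49). In the imatinib run the condensation median was 0.43, below the 0.67 of D cyclins, CDKs and their inhibitors. Erythroid genes had a median of 0.65 over 22 genes (0.41 without the 3 low libraries), heat-shock proteins 0.69 over 15 (0.49), centrosome duplication genes 0.51 over 13, immediate-early genes 0.51 over 14 and K562 identity genes 0.67 over 12 (0.41), where all genes had 0.34 (0.36). The 80 cytosolic ribosomal protein genes had a median of 0.05 and none was at least 1 higher. In the CellTracker runs the erythroid medians were 0.28 and 0.16 and those of heat-shock proteins 0.16 and 0.11. K562 markers were all detected in both groups, with summed medians of 5552 CPM in low and 6949 CPM in high cells. Of 17 markers of other blood and tissue cells, 10 had no read in either group, and the summed medians of the list were 260 and 201 CPM.

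The 13 mitochondrially encoded genes were lower in the G2/M-high cells, with differences between -0.94 and -0.54 and a median of -0.68. MT-CO1, cytochrome oxidase subunit 1, was at 4124 to 39290.3 CPM (median 11188) in low and 368 to 18816 CPM (median 7023) in high cells, a difference of -0.75, and 20 of 25 high cells lay at or below the median of the low cells. Library 33, a high cell, had 0.851% of its reads on mitochondrial genes, the lowest share of the 77 kept cells. In the CellTracker Green cells the list medians were 0.05 and 0.00. Per ERCC read, with the score put on the same scale and the cells cut again, the Hoechst list median was 0.48. All genes had a median of 1.22 in that cut. In the groups described above, the median log2 of reads on genes per ERCC read was 4.26 in high and 3.91 in low cells.

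These libraries also differed in make-up. The high cells had a median of 7981 genes at more than 2 reads and the low cells 7169 (middle 7147), and after thinning each library to 500000 reads the medians were 7042 and 6200, while reads on genes were alike (medians 1278256 and 1238580). The share of reads on mitochondrial genes had medians of 10.6% and 14.8%, the ERCC share 4.96% and 6.22%, and the share in the top 500 genes 48.7% and 53.8%. ERCC shares of 23 of 25 high cells lay below the median of the low cells. More genes were also detected in the high cells of the imatinib (by 586 in the medians) and benzene runs (by 645). When the part of the score that followed the number of genes was taken out and the cells cut again, the all-gene median was 0.14, the mitotic median 1.03 and 46 genes were at least 2 higher. The part of these library measures in the other gene differences was not tested, and more RNA per cell and better capture of it cannot be told apart.

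The groups were also unevenly spread over the library numbers, which the labels do not explain. Numbers 1 to 30 held 9 low and 5 high cells, 31 to 60 held 4 and 11, and 61 to 90 held 12 and 8. The median mitochondrial share of the kept cells was 8.78%, 11.2% and 15.8% in these blocks and the ERCC share 2.65%, 5.40% and 6.56%. Within each block high cells had the lower mitochondrial share, with medians of 8.22% against 10.4%, 10.6% against 17% and 13.4% against 16.2%. ERCC shares were 2.24% against 3.01%, 4.96% against 6.06% and 5.33% against 7.63%. The mean of log2(CPM + 1) over the mitochondrial genes differed by -0.57, -1.09 and -0.40. All 4 mitotic lists had higher means in the high cells of each block, by 1.41 to 1.91 for numbers 1 to 30, which include libraries 2, 4 and 23, by 0.48 to 1.11 for 31 to 60 and by 0.67 to 0.88 for 61 to 90. The difference of all genes was not computed within blocks, so how far these values exceed it is not known.

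**Figure D5:**
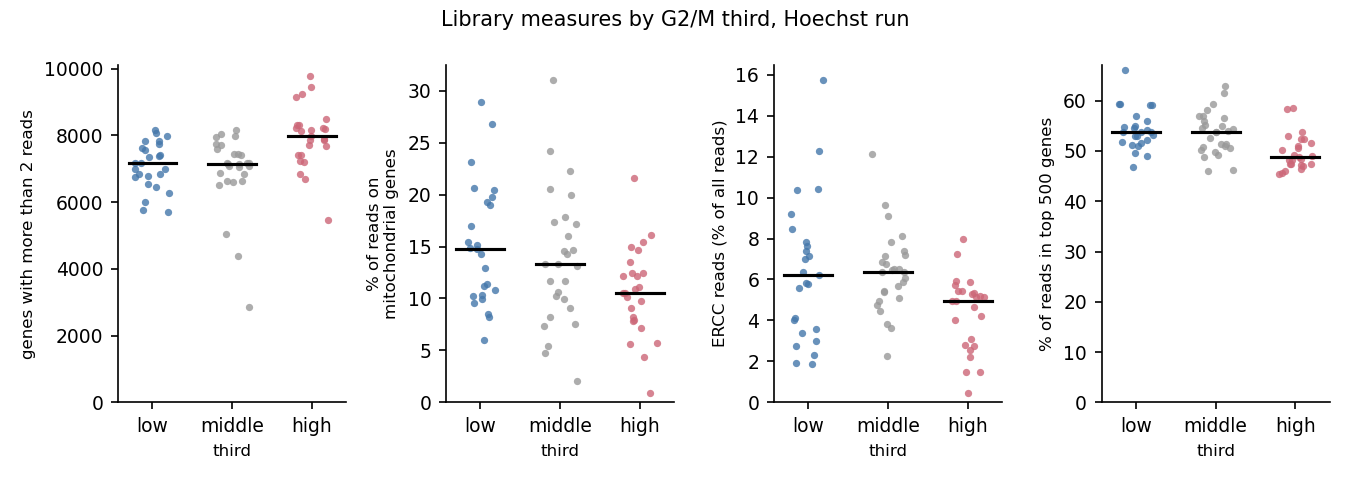
Genes with more than 2 reads, and the shares of reads on mitochondrial genes, on ERCC sequences and in the top 500 genes, for low, middle and high cells of the Hoechst run, with a bar at each median. High cells sit higher in genes detected (median 7981 against 7169) and lower in all 3 shares.

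At the other end, the 12 largest negative differences of the Hoechst run lay between -1.95 and -1.57. ERCC3, a DNA helicase of TFIIH, was at -1.70 (median 60.3 CPM in low and 19.5 CPM in high cells) and at -0.71 and 2.96 in the CellTracker runs. COQ8A, of ubiquinone synthesis, was at -1.69, -1.38 and 0.71, NIF3L1 at -1.60, 0.67 and -1.42, and STRADB, a pseudokinase, at -1.66, 0.08 and -0.43. LINC02604 had the lowest value, -1.95, and was at -0.64 and -0.08. Whether reads were assigned by strand is not given in the sources used here, so long non-coding and antisense genes in this group are uncertain.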

How the data were processed

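Counts per gene were deposited for K562 libraries, most of single cells. The authors made these counts with HISAT2 on GRCh37 with ERCC sequences, Picard (1.92) and featureCounts of Subread (1.5.0) on Ensembl release 75, from bcl2fastq reads. A deposited CPM table was not used. The table held 63677 gene rows and 92 ERCC rows, and 84 columns of other libraries were not used. CPM was computed per 1000000 reads on genes, and differences were taken between means of log2(CPM + 1). Depth was 50358 to 2043351 reads on genes per kept Hoechst cell, and 2 middle cells had under 500000 reads. Reads carry no molecular identifiers, so intervals cover counting error only. With 1 culture per set no test was made. No doublet caller was run. No libraries had identical counts.

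Names and coordinates came from GENCODE v44lift37, which holds 55665 of the gene rows with 99.0% of reads. Promoters came from the RefSeq table (GRCh38.p14) and those printed were matched to GRCh37. Members and lists were chosen with earlier results of these data known. Named genes were the 12 largest and 12 smallest differences, the 4 of largest size per list, the 6 largest and smallest over all 3 sets, the 6 score genes and 3 with the highest correlation with the score. A gene that this rule names is not reported here. Other genes named were chosen after their values were seen. Blocks of library numbers were set after seeing the data. Alternatives changed the pseudocount, filter, depth, scaling, score genes, group size and limits on libraries. The steps were tested on simulated data. Python 3.11.15, numpy 2.4.6, pandas 2.3.3, scipy 1.17.1 and matplotlib 3.10.9 were used.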

Additional observations from a re-analysis of the deposited data

How the results depend on the processing

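Of 1342 alternative values of 68 results, 1301 did not change sign and shifted by under 1 SD over cells or genes (counts, under 1.5 times). For single genes the SD over cells can exceed the difference itself (DLGAP5, 2.60 against 2.36), so this limit is wide. Leaving out library 91, and libraries 2, 4 and 23, was chosen after seeing the data, as was subtracting the median of all genes. The count of genes at least 2 higher, 103, was 0 with a pseudocount of 10, 238 with 19 cells a group, 180 without CENPE in the score, 46 with the score corrected for genes detected, 222 from summed reads, 1606 per ERCC read, 165 with no limit on genes, 31 after subtracting the median and 1581 at a difference of 1. It was 84 without library 91 and 136 without libraries 2, 4 and 23, of which 72 and 68 were among the 103. The count of genes at least 2 lower, 0, was 12 with 19 cells a group, 1, 8 and 1 without CCNB1, KIF20A and HMMR, 4 with the corrected score, 4 after thinning, 173 from summed reads, 3 without mitochondrial genes in the total, 1 with a limit of 60%, 6 after subtracting the median and 164 at a difference of 1. Per ERCC read, list medians rose to 2.22 for the mitotic lists together, 2.33 for the kinetochore, 1.98 for the condensation, 1.89 for the G1/S, 1.36 for the D cyclin, 1.48 for the centrosome, 1.54 for the heat-shock, 1.46 for the K562 and 1.07 for the ribosomal list, and 1.22 for all genes, whose median is 0 when subtracted. Reversed were the D cyclin list (-0.21 from summed reads, -0.0386 after subtraction), the ribosomal list (-0.0254 and -0.28), markers of other cells (0.0600 without CCNA2, 0.92 per ERCC read), mitochondrial genes (0.48 per ERCC read) and DLGAP5 (-0.31 from summed reads). Per ERCC read the score was put on that scale too and the cells were cut again. Mitochondrial genes then lay at 0.48, below the 1.22 of all genes. The cause of these changes was not tested. Over these settings the mitotic median lay above that of all genes by 0.47 (summed reads) to 1.11 (no filter on detection). No paired analysis was possible because no comparison was tested and the replicate numbers only name libraries. Depth limits what a gene listed at 0 reads in a cell shows.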
